A study of Mus musculus with 6 samples.

Results

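Interferon-stimulated genes are the genes that cells switch on when interferon, a secreted antiviral signal, binds its receptors. The 38 described here were chosen by a fixed list of mouse symbols for genes induced by type I and type II interferon, and all 38 were found among the 36528 gene models of the files. They were grouped by protein role into 8 families, of which the IFIT, OAS and GBP families are the best known. The RNA came from primary melanocytes, the pigment cells, of mouse skin. Polyadenylated RNA was sequenced as single-end reads of 50 bases in 6 libraries, 3 with the genotype label BAP1 KO (knockout) and 3 with the label WT (wild type). BAP1 is a nuclear enzyme that removes ubiquitin from histones and is a tumour suppressor lost in some melanomas. The sources used here do not give strain, age, sex, treatment, or the means and timing of the deletion, and neither group is described as treated with interferon. The labels also do not say whether libraries of 1 group came from different cultures or mice, so p-values measure the spread between these libraries, which may be technical.

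The targeted gene did not follow its label. Levels are given as CPM, a gene's reads relative to the library's size, scaled for library composition. Under the BAP1 KO label Bap1 was read at 73.6, 77.3 and 72.5 CPM, and its WT-labelled values were 55.7, 55.6 and 55.8 CPM. The difference was 0.42 on the log2 scale (SE 0.042, 1.34-fold higher, edgeR adjusted p = 3.89e-06), and reads over a deleted exon were not analysed here. "Higher" and "lower" below therefore always mean the libraries labelled BAP1 KO relative to the libraries labelled WT, shortened to KO-labelled and WT-labelled. Summed over the gene models, libraries held 33987690 to 43773769 uniquely aligned reads, and 17121 genes had enough reads to be tested.

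The cell label was checked against marker lists. All 12 melanocyte markers were present in both groups and all 12 rose, with a summed level of 67737 to 68534 CPM in KO-labelled and 8044 to 8229 CPM in WT-labelled libraries. Of 18 keratinocyte markers, 17 fell and 1 was not tested, and their sum was 769 to 803 CPM against 11038 to 11215 CPM, with Krt1 and Lgals7 under 1 CPM. Of 14 fibroblast markers, 12 fell and 1 rose (168 to 181 against 1211 to 1246 CPM). Of 13 immune markers, 6 rose, 3 fell and 4 were not tested (231 to 239 against 55.9 to 63.3 CPM), while the defining leukocyte gene Ptprc was under 1 CPM and Siglech, a marker of plasmacytoid dendritic cells, had no read. Of 6 endothelial markers, 2 rose and 1 fell (48.8 to 53.8 against 14.7 to 15.6 CPM). These sums move with every difference given here, and their part in the interferon-stimulated genes was not tested. In bulk RNA, fewer cells of a type and less RNA per cell cannot be told apart.

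Type I interferons bind the IFNAR receptor, whose kinases phosphorylate STAT proteins such as STAT2. STAT2 works with IRF9 in a factor that binds a DNA element called the interferon-stimulated response element (ISRE). Type II interferon acts through the IFNGR receptor and a DNA element called the gamma-activated site (GAS). The proteins made from the target genes bind foreign RNA, degrade RNA, block viral entry or assembly, attack vacuoles that hold pathogens, or feed back on the pathway.

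The response element is written in the promoters of many of these genes. The letters are shown here because some members that rose and some that fell carry its core. RefSeq promoter sequences of GRCm38.p6, each 300 bases long with 250 before and 50 after the annotated RNA start, were found for 27 of the 38 genes. Each stretch below runs 5′ to 3′ on the strand of its gene, has 20 bases on either side of the outermost elements, and lies outside the exons annotated in GENCODE M21. Capitals mark each ISRE core, which is GAAA, any 2 bases and GAAA, or on the other strand TTTC, any 2 bases and TTTC. The first 6 belong to genes that were higher and the last 2, Oas3 and Rsad2, to genes that were lower. Their positions are chr19:34640765-34640833 (+) for Ifit1, chr19:34583353-34583436 (+) for Ifit3, chr19:34607749-34607832 (+) for Ifit3b, chr10:128270256-128270305 (+) for Stat2, chr4:156200855-156200916 (-) for Isg15, chr3:142530263-142530312 (+) for Gbp7, chr5:120777705-120777754 (-) for Oas3 and chr12:26456543-26456592 (-) for Rsad2.
Ifit1: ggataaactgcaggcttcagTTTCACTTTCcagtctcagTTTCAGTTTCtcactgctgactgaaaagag
Ifit3: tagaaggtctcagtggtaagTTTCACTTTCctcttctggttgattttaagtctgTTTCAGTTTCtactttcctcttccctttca
Ifit3b: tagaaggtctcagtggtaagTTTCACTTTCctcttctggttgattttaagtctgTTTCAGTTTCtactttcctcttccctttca
Stat2: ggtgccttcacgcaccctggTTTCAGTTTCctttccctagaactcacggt
Isg15: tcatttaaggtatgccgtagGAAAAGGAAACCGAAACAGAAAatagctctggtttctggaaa
Gbp7: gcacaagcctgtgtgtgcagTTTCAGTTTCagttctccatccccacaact
Oas3: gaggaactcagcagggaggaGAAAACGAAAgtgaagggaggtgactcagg
Rsad2: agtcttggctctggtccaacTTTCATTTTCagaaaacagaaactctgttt

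Ifit1, Ifit3 and Ifit3b each carry 2 separate cores, and the stretches of Ifit3 and Ifit3b have the same 84 letters. These 2 stretches lie inside the gene spans given below. The RNA starts used, 34583529 for Ifit3 and 34607957 for Ifit3b, come after the first base of each span. In Isg15 the run of capitals holds 3 overlapping cores, while Stat2, Gbp7, Oas3 and Rsad2 have 1 core each. Over all promoters available, 17 of the 27 genes (63%) held the core on either strand, against 1079 of 27025 genes in the RefSeq table (3.99%). The core was found in 10 of 15 genes that were higher (66.7%), 5 of 10 that were lower (50%) and 2 of 2 that were not called. In 3 genes it lay only after the RNA start: Ifih1 and Ifitm3, which were lower, and Eif2ak2, which was not called. The GAS letters TTCNNNGAA, which are their own reverse complement, were in 9 of 27 promoters (33.3%) against 2582 of 27025 (9.55%). A match describes the letters of a window and is not a bound site.

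**Figure D1:**
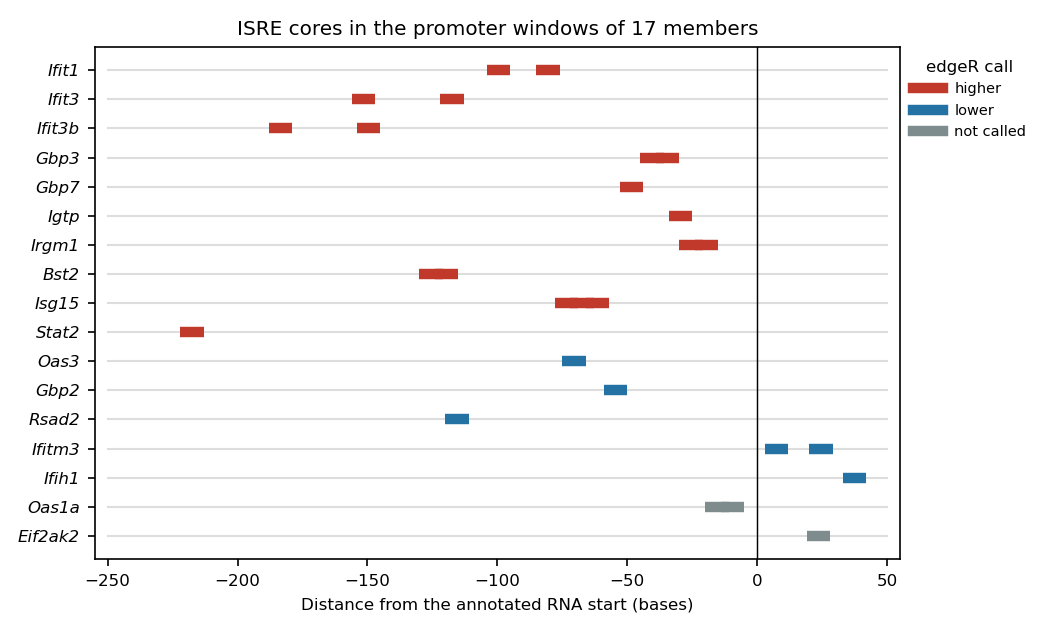
Each row is the promoter window of 1 of the 17 genes with an ISRE core, drawn by distance in bases from the annotated RNA start (vertical line). Coloured blocks are cores, red in the 10 genes that were higher, blue in the 5 that were lower and grey in the 2 that were not called. All red blocks lie before the start, while blue and grey blocks lie on both sides of it.

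Of the 38 genes, 36 had enough reads to be tested, and Oas2 and Iigp1 did not. At an edgeR adjusted p under 0.05, 19 were higher, 11 were lower and 6 were not called. The background was wide, since 81.5% of all tested genes were called, 39.4% as higher and 42.1% as lower. The members' share of 83.3% called is near that background and is not a result about these genes. In 31 of the 36 genes every library of one group lay above every library of the other, against 82.7% of all tested genes. Called differences over 2-fold numbered 11 higher and 6 lower, where 13.9% and 22.7% of all tested genes passed that size. The median log2 difference of the 36 genes was 0.24, beside -0.03 over all tested genes. Without the 9 listed genes that share over 10% of their sequence or exon bases with another gene, 12 were higher and 10 lower, and the median was -0.04.

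**Figure D2:**
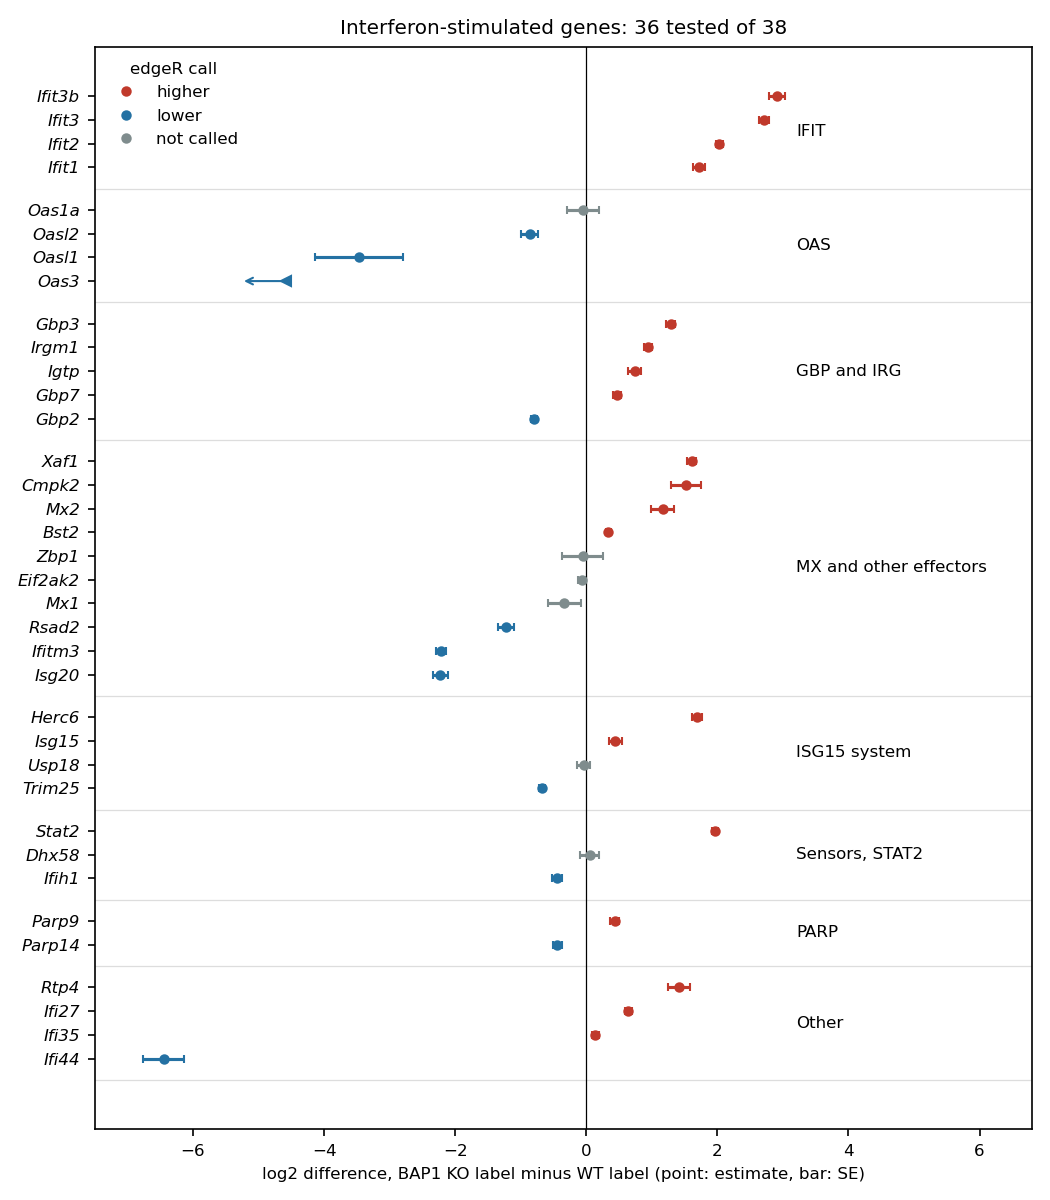
Points give the log2 difference between KO-labelled and WT-labelled libraries for each of the 36 tested genes, grouped by family, with bars of 1 SE. The 4 IFIT genes lie to the right of 0, the called OAS genes to the left, and Ifi44 is farthest left at -6.45 among the fitted values drawn, while the arrow for Oas3 starts at its bound of -4.59.

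The IFIT proteins act against viral RNA, and IFIT1 binds RNA that lacks the host's cap methylation and blocks its translation. All 4 IFIT genes listed were higher, by 3.30- to 7.52-fold, with a median log2 difference of 2.37, while the paralog Ifit1bl1, outside the list, was lower. They lie in 1 row on the + strand of chromosome 19, in the order Ifit2, Ifit3, Ifit3b and Ifit1, with 6584, 18547 and 27485 bases between neighbours. Ifit2 (gene ID 15958, chr19:34550550-34576534), whose product also binds RNA rich in A and U, was read at 42.6, 44.2 and 42.3 CPM in KO-labelled libraries and 10.2, 10.8 and 10.7 CPM in WT-labelled ones. The lowest KO-labelled library was far above the highest WT-labelled one, and the log2 difference was 2.03 (SE 0.0532, 4.07-fold, edgeR adjusted p = 4.84e-11). Ifit1 (chr19:34640889-34650009), the member that binds the unmethylated cap, stood at 8.11, 8.47 and 8.84 CPM against 2.73, 2.58 and 2.40 CPM. Its groups were apart as well, with a log2 difference of 1.72 (SE 0.091, 3.30-fold, edgeR adjusted p = 1.71e-08).

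Ifit3 (chr19:34583119-34588982) was read at 21.6, 23.1 and 22.7 CPM against 3.45, 3.62 and 3.25 CPM. Its near copy Ifit3b (chr19:34607530-34613403) had 9.30, 9.66 and 10.7 CPM against 1.27, 1.12 and 1.53 CPM. Both were higher in every KO-labelled library, 6.54-fold for Ifit3 (edgeR adjusted p = 6.41e-11) and 7.52-fold for Ifit3b (edgeR adjusted p = 2.18e-09). Because 51.2% of the 50-base stretches of Ifit3 and 45% of those of Ifit3b also occur elsewhere, mostly in each other, the division of reads between these copies is uncertain. Summed over the family on the length-scaled level deposited by the authors (RPKM adjusted by a size factor), IFIT RNA was 27.0 ± 0.681 (SD, n = 3) under the KO label and 5.24 ± 0.0336 (SD, n = 3) under the WT label.

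**Figure D3:**
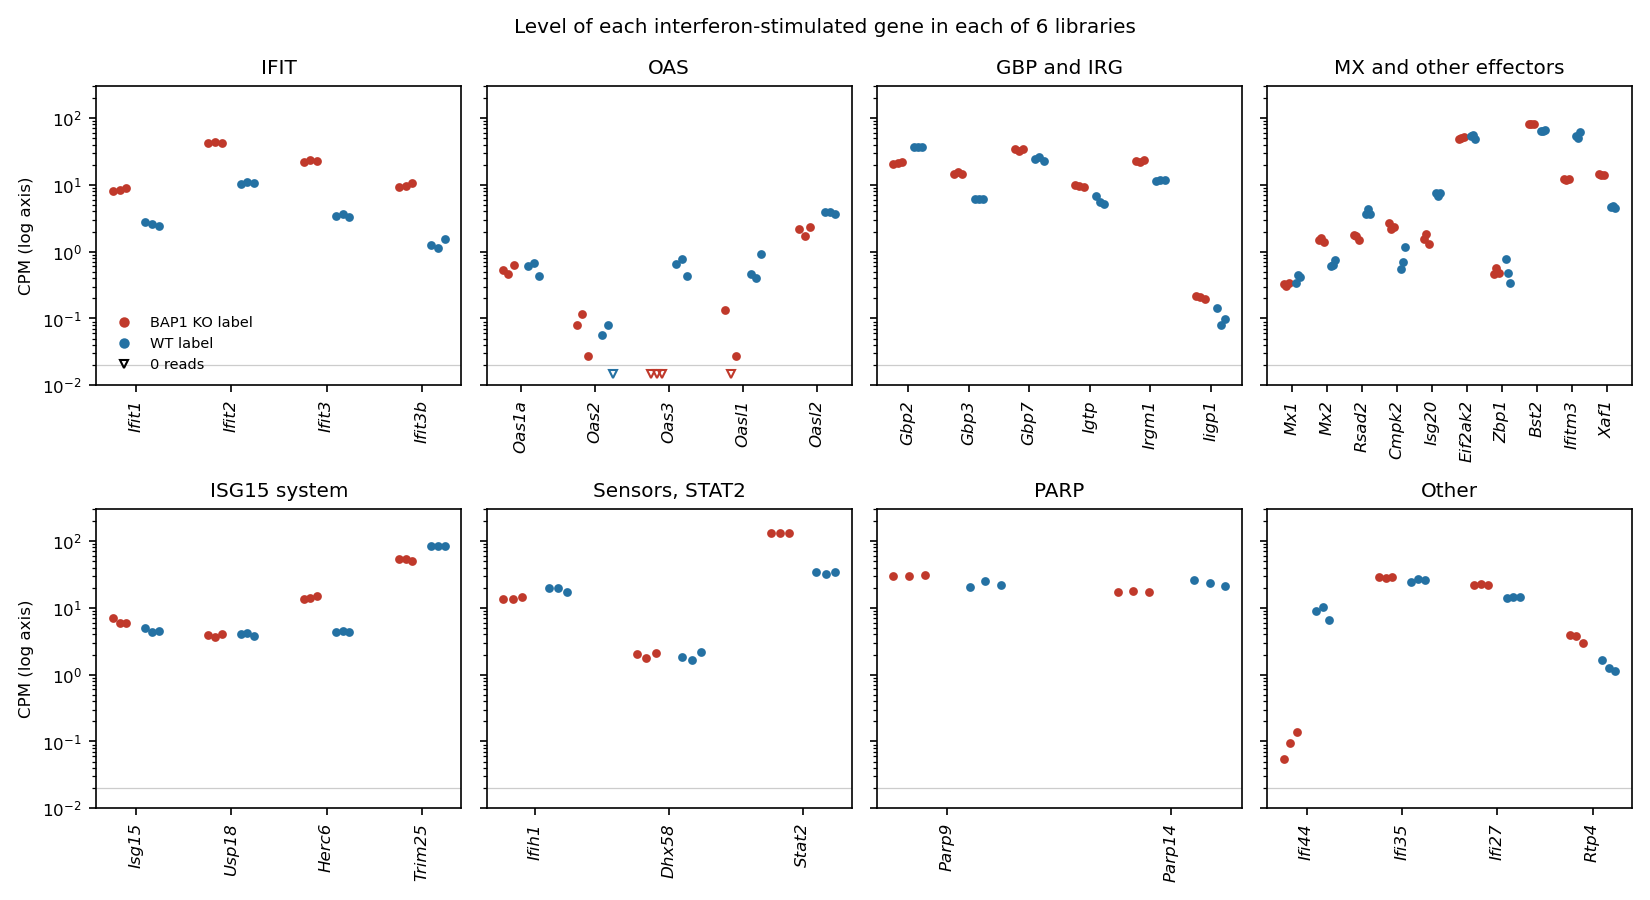
Each point is 1 library's CPM on a log axis, red for the BAP1 KO label and blue for the WT label, with the 38 genes in 8 panels by family, and open triangles mark libraries with 0 reads. Red lies above blue for all 4 IFIT genes, and Oas3 has open triangles for all 3 KO-labelled libraries.

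The OAS proteins sense double-stranded RNA and make a small messenger that sets off antiviral defence. None of the 4 OAS genes tested was higher, 3 were lower, and their median log2 difference was -2.16. Oas3 (gene ID 246727, chr5:120753098-120777684), the member that responds to long RNA duplexes, had 0 reads in each of the 3 KO-labelled libraries and 23, 29 and 18 reads in the WT-labelled ones (edgeR adjusted p = 2.92e-05). Set against a floor of 3 reads over the KO-labelled group, it was at least 24.0-fold lower. Even under the WT label its mean was only 0.623 CPM, so these are few reads.

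Oasl1, an OAS-like protein without enzyme activity that represses translation of Irf7, had 5, 0 and 1 reads against 16, 15 and 38 reads. The WT-labelled libraries were all higher and varied widely among themselves, and the log2 difference was -3.46 (SE 0.673, 11-fold lower, edgeR adjusted p = 0.000677). Oasl2, its neighbour 10897 bases away on chromosome 5, was read at 2.21, 1.69 and 2.37 CPM against 3.85, 3.86 and 3.64 CPM. That is a smaller difference of -0.86 (SE 0.133, 1.82-fold lower, edgeR adjusted p = 0.000123), again with no overlap between groups. Oas1a, a classical 2-5A synthetase, had a mean of 0.55 ± 0.0866 CPM (SD, n = 3) against 0.568 ± 0.118 CPM (SD, n = 3) and was not called (edgeR adjusted p = 0.866). As much as 57.6% of its 50-base stretches occur elsewhere, mostly in Oas1g, so its value is uncertain. Oas2 had 9 reads in all under the KO label and 5 under the WT label, too few to test.

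The guanylate-binding proteins (GBPs) and immunity-related GTPases (IRGs) coat and break vacuoles that hold pathogens, and type II interferon is their strongest known inducer. Of the 6 listed, 5 were tested, 4 were higher and 1, Gbp2, was lower, with a median log2 difference of 0.74. Gbp3 was read at 14.7, 15.7 and 14.7 CPM in KO-labelled and at 6.16, 6.14 and 6.14 CPM in WT-labelled libraries. The groups were well apart (log2 1.29, SE 0.0673, 2.44-fold, edgeR adjusted p = 1.56e-08). Gbp7 stood at 34.7, 31.9 and 34.7 CPM against 24.3, 25.8 and 22.9 CPM, a smaller rise of 1.39-fold (edgeR adjusted p = 2.99e-05) in a gene of which 11.3% of the exon bases overlap the gene model Gm43802. Gbp2 (chr3:142620663-142638008) went the other way, from 36.4, 37.3 and 36.6 CPM under the WT label to 20.4, 21.2 and 21.9 CPM under the KO label. Its log2 difference was -0.80 (SE 0.0491, 1.74-fold lower, edgeR adjusted p = 6.47e-08). The 3 GBP genes lie together on chromosome 3, with 9864 bases between Gbp7 and Gbp3 and 47449 between Gbp3 and Gbp2.

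Among the IRGs, Irgm1, a regulator of the other members and of autophagy, had 22.4, 21.7 and 23.5 CPM against 11.4, 11.7 and 11.9 CPM. It was higher in all 3 KO-labelled libraries (log2 0.94, SE 0.0592, 1.92-fold, edgeR adjusted p = 7.42e-08). Igtp was read at 9.92, 9.62 and 9.40 CPM against 6.73, 5.51 and 5.14 CPM. The rise was 1.67-fold (edgeR adjusted p = 4.22e-05), and 11.8% of the 50-base stretches of Igtp also occur elsewhere, mostly in Irgm2. Iigp1 had 8, 9 and 7 reads against 5, 3 and 4 reads and was not tested.

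The 10 genes grouped as MX and other effectors were split, with 4 higher, 3 lower and 3 not called, and a median log2 difference of -0.06. Ifitm3 (chr7:141009590-141010744), a membrane protein that blocks virus entry from endosomes, was read at 12.1, 11.8 and 12.0 CPM in KO-labelled libraries and 54.1, 50.1 and 62.5 CPM in WT-labelled ones. All 3 KO-labelled libraries were low and close to each other, and the log2 difference was -2.22 (SE 0.0816, 4.65-fold lower, edgeR adjusted p = 8.01e-10), in a gene that shares just over 10% of its sequence with others. Isg20, an exonuclease that degrades single-stranded RNA, fell from 7.45, 6.89 and 7.61 CPM to 1.54, 1.81 and 1.31 CPM. That is 4.68-fold lower (log2 -2.23, SE 0.119, edgeR adjusted p = 1.93e-08).

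Rsad2, which makes viperin, and Cmpk2, a mitochondrial nucleotide kinase, are neighbours on chromosome 12 that point away from each other with 12664 bases between them. Rsad2 had 1.78, 1.69 and 1.51 CPM against 3.65, 4.36 and 3.64 CPM, and was 2.34-fold lower (log2 -1.22, SE 0.128, edgeR adjusted p = 5.53e-06). Cmpk2 had 2.67, 2.16 and 2.31 CPM against 0.547, 0.691 and 1.19 CPM, and was 2.87-fold higher (log2 1.52, SE 0.232, edgeR adjusted p = 0.000112). In neither gene did the groups overlap, so the neighbours differed in opposite directions.

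Xaf1, a pro-apoptotic partner of XIAP, was read at 14.6, 13.9 and 14.0 CPM against 4.63, 4.76 and 4.53 CPM. It was higher in every KO-labelled library (log2 1.61, SE 0.0705, 3.05-fold, edgeR adjusted p = 3.46e-09). Mx2, a dynamin-like GTPase, had 1.48, 1.62 and 1.39 CPM against 0.604, 0.638 and 0.752 CPM (2.24-fold higher, edgeR adjusted p = 8.3e-05). Its paralog Mx1 lies 73174 bases away on chromosome 16 and was at 0.321 ± 0.015 CPM (SD, n = 3) against 0.403 ± 0.054 CPM (SD, n = 3), which did not pass the test (edgeR adjusted p = 0.314). Bst2, the tether that holds budding virus at the cell surface, had 81.1, 81.4 and 80.2 CPM against 63.5, 63.2 and 65.3 CPM, a rise of 1.26-fold (edgeR adjusted p = 1.19e-05). The kinase of double-stranded RNA, Eif2ak2, was at 49.9 ± 1.54 CPM (SD, n = 3) against 52.1 ± 3.71 CPM (SD, n = 3), with overlapping groups (edgeR adjusted p = 0.336). Zbp1, a sensor of Z-form nucleic acid, was low in both groups, with means of 0.498 and 0.532 CPM (edgeR adjusted p = 0.873).

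ISG15 is a ubiquitin-like protein that is attached to other proteins, and of the 4 genes of its system 2 were higher, 1 lower and 1 not called (median log2 difference 0.20). Isg15 itself had 6.93, 5.91 and 5.97 CPM against 4.98, 4.33 and 4.53 CPM. The rise was small, 1.36-fold, and without overlap (log2 0.44, SE 0.0986, edgeR adjusted p = 0.00173). Herc6, the main ISG15 ligase of the mouse, was read at 13.6, 14.1 and 15.1 CPM against 4.32, 4.55 and 4.37 CPM. It was 3.24-fold higher (edgeR adjusted p = 4e-09), with 13.7% of its exon bases overlapping the gene model Gm45193. Trim25, a ubiquitin and ISG15 ligase that activates RIG-I, had 53.2, 52.8 and 50.2 CPM against 82.7, 82.9 and 83.2 CPM and was 1.59-fold lower (edgeR adjusted p = 6.24e-08). Usp18, which removes ISG15 and dampens the IFNAR receptor, was at 3.86 ± 0.219 CPM (SD, n = 3) against 3.96 ± 0.202 CPM (SD, n = 3) and was not called (edgeR adjusted p = 0.732).

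Stat2 (gene ID 20847, chr10:128270498-128292853), the partner of IRF9 at the ISRE, had the smallest adjusted p of the 38 genes. It was read at 131, 130 and 130 CPM in KO-labelled libraries and at 33.9, 31.9 and 34.8 CPM in WT-labelled ones. The libraries of each group were close together and the groups far apart (log2 1.96, SE 0.045, 3.88-fold, edgeR adjusted p = 1.65e-11). The RNA helicase genes grouped with it did not share that size: Ifih1, which makes the long-duplex sensor MDA5, had 13.5, 13.4 and 14.7 CPM against 19.7, 19.8 and 17.1 CPM. Ifih1 was thus 1.36-fold lower (edgeR adjusted p = 0.000229). Dhx58, which makes the regulator LGP2, was at 1.96 ± 0.175 CPM (SD, n = 3) against 1.87 ± 0.26 CPM (SD, n = 3) and was not called (edgeR adjusted p = 0.75).

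The ADP-ribosyltransferase genes Parp9 and Parp14 lie 66951 bases apart on chromosome 16 and differed in opposite directions by a similar factor. Parp9, which works with the ligase DTX3L, had 29.8, 30.1 and 31.1 CPM against 20.7, 25.1 and 21.6 CPM (1.35-fold higher, edgeR adjusted p = 0.000187). Parp14 had 17.4, 17.7 and 17 CPM against 25.6, 23.6 and 21.5 CPM (1.36-fold lower, edgeR adjusted p = 0.000146). Neither pair of groups overlapped.

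Of the remaining 4 genes, 3 were higher and Ifi44 was lower. Ifi44 (gene ID 99899, chr3:151730922-151749910), a GTP-binding protein, had 2, 4 and 5 reads in KO-labelled libraries and 311, 388 and 271 reads in WT-labelled ones. It was almost absent under one label and moderate under the other, 0.0957 ± 0.0428 CPM (SD, n = 3) against 8.61 ± 1.9 CPM (SD, n = 3). The log2 difference was -6.45 (SE 0.31, 87.2-fold lower, edgeR adjusted p = 7.75e-09). Rtp4, a Golgi chaperone for receptors, was read at 3.94, 3.73 and 2.98 CPM against 1.64, 1.28 and 1.12 CPM (2.67-fold higher, edgeR adjusted p = 1.48e-05), with 13.9% of its exon bases overlapping Gm45338. Ifi27, a small mitochondrial protein, had 22.2, 22.7 and 21.8 CPM against 13.8, 14.6 and 14.4 CPM (1.56-fold higher, edgeR adjusted p = 1.14e-06). Ifi35, which forms a complex with NMI, was at 28.5, 28.0 and 28.9 CPM against 24.1, 27.3 and 26.2 CPM. Its rise of 1.10-fold (edgeR adjusted p = 0.0452) did not pass with DESeq2, with library totals or upper-quartile factors, or without any 1 of the 3 KO-labelled libraries or WT-labelled library 1, and 16.8% of its exon bases overlap Gm11626.

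Levels of different genes were compared on the deposited length-scaled RPKM. Under the WT label Ifitm3 (79.2 ± 10.1 RPKM, SD, n = 3) and Bst2 (76.5 ± 2.39 RPKM, SD, n = 3) came first, did not differ beyond their spread, and stood far above Ifi35 at 17.5 RPKM in rank 3. Under the KO label Bst2 came first at 98.7 ± 0.925 RPKM (SD, n = 3), followed by Stat2 at 27.3 ± 0.182 RPKM (SD, n = 3), Ifi35 at 19.7 RPKM and Ifitm3 at 17.4 ± 0.271 RPKM (SD, n = 3). Stat2 thus stood at rank 2 of 38 under the KO label and rank 8 under the WT label. Ifit3 moved between rank 6 and rank 21, and Ifi44 between rank 35 and rank 15. As family sums, OAS RNA was the lowest at 0.933 ± 0.152 RPKM (SD, n = 3) against 1.76 ± 0.005 RPKM (SD, n = 3). The GBP and IRG sum was 31.8 ± 0.528 against 26.6 ± 0.267 RPKM (SD, n = 3), and the ISG15 system had 21.2 ± 0.857 against 22.2 ± 0.566 RPKM (SD, n = 3).

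**Figure D4:**
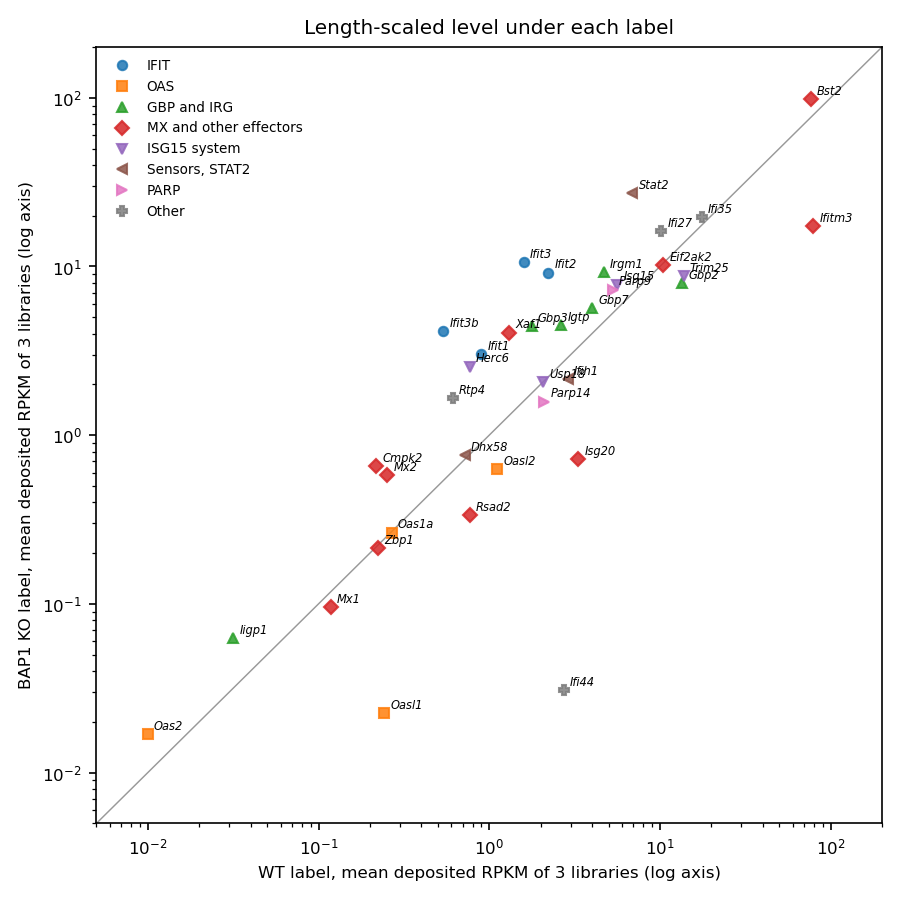
Each symbol is 1 gene at its mean deposited RPKM of 3 libraries under the WT label (horizontal, log axis) and under the BAP1 KO label (vertical, log axis), with shapes for the families and a diagonal of equal levels. Stat2 and the 4 IFIT genes lie above the diagonal and Ifitm3, Isg20, Oasl1 and Ifi44 below it, and Oas3 is not drawn because its KO-labelled value is 0.

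Interferon genes themselves were hardly read. Of 21 ligand genes, 14 had no read in any library, and the set had 6 reads in all under the KO label and 29 under the WT label. None had enough reads to be tested. Ifne, the interferon of epithelia, made up 2 and 12 of these reads. A count of 0 over 3 libraries allows up to 0.0260 CPM in the KO-labelled group and 0.0264 CPM in the WT-labelled one.

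Receptor subunits differed from each other in direction: 2 of 6 were higher, 3 lower and 1 not called. Of all tested genes, 39.4% were called higher and 42.1% lower. Ifnar1, the signalling chain for type I interferon, stood at 108 ± 3.3 CPM (SD, n = 3) against 105 ± 2.77 CPM (SD, n = 3) and was not called (edgeR adjusted p = 0.293), while its partner Ifnar2 was higher at 71.2 ± 0.788 against 54.9 ± 0.486 CPM (SD, n = 3, edgeR adjusted p = 5.19e-06). Ifngr1, the ligand-binding chain for type II interferon, was read at 16.6, 17.9 and 17.7 CPM in KO-labelled and 89.3, 87.2 and 84.1 CPM in WT-labelled libraries. Its groups were far apart (log2 -2.32, SE 0.0499, 4.99-fold lower, edgeR adjusted p = 1.01e-11), and its partner Ifngr2 was also lower (66.1 against 91.7 CPM, edgeR adjusted p = 1.4e-06). Ifnlr1, the specific chain for type III interferon, had 6.28, 6.82 and 6.08 CPM against 42.3, 43.1 and 44.6 CPM (6.77-fold lower, edgeR adjusted p = 1.37e-11). Its shared partner Il10rb was higher, at 245 against 84.8 CPM (edgeR adjusted p = 9.26e-11), with 14.9% of exon bases overlapping Gm21970.

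Of 11 kinases, STATs and IRFs downstream of the receptors, 6 were higher, 2 lower and 3 not called (median log2 difference 0.34). Over all tested genes 81.5% were called, so the number called is not a result about this list. Irf9, the partner of Stat2, was higher like it and was read at 45.5, 44.7 and 42.4 CPM against 24.0, 22.9 and 23.9 CPM (1.87-fold, edgeR adjusted p = 2.54e-08). Irf7, the amplifier of interferon production and itself a target gene, had 9.76, 9.57 and 8.78 CPM against 3.91, 3.51 and 3.56 CPM (2.56-fold, edgeR adjusted p = 8.74e-08). Irf1, an immediate target of type II interferon, did not pass the test at 25.1 ± 0.381 against 23.9 ± 1.39 CPM (SD, n = 3, edgeR adjusted p = 0.243). Stat3 was higher at 373 against 213 CPM (edgeR adjusted p = 2.49e-09).

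**Figure D5:**
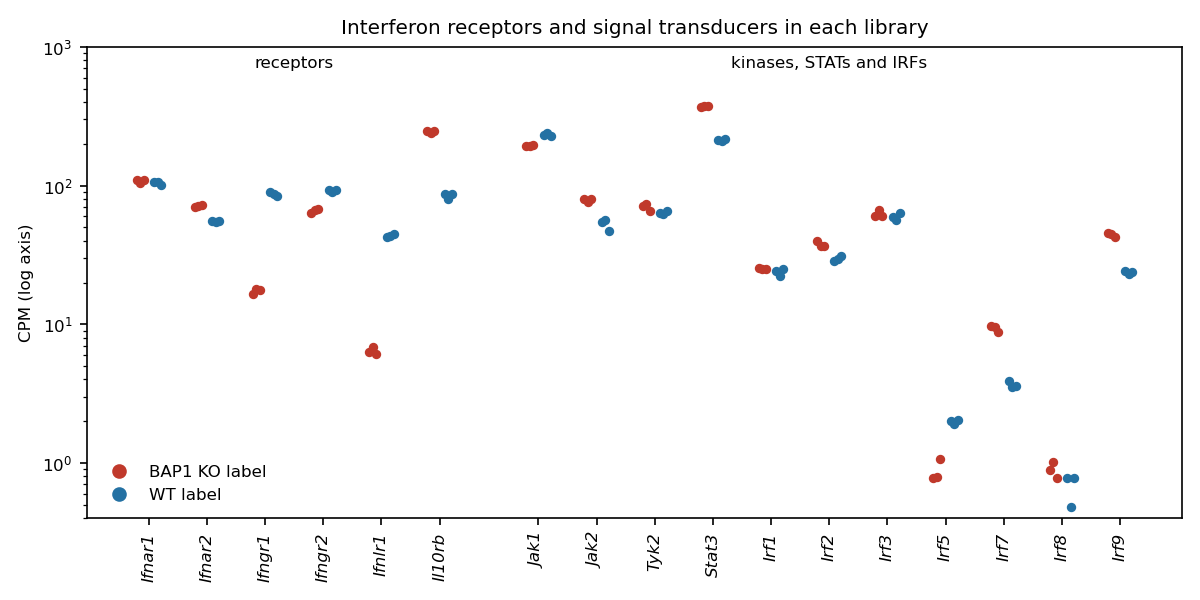
Each point is 1 library's CPM on a log axis for the 6 receptor subunits and 11 kinases, STATs and IRFs, red for the BAP1 KO label and blue for the WT label. Ifngr1 and Ifnlr1 have red points well below blue, Il10rb, Irf7 and Irf9 have red above blue, and the points of Ifnar1 and Irf1 overlap.

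Other parts of the pathway were mixed as well, as were all tested genes, of which 39.4% were called higher and 42.1% lower. Among 12 negative regulators, 5 were higher and 6 lower. The phosphatase Ptpn6 was 5.22-fold lower (3.33 against 17.3 CPM, edgeR adjusted p = 5.02e-10) and the feedback inhibitor Socs3 was 1.62-fold higher (49.1 against 30.2 CPM, edgeR adjusted p = 4.42e-07). Of 17 genes of nucleic acid sensing, 16 were tested, 6 were higher and 9 lower. Tlr3, the endosomal sensor of double-stranded RNA, had 7.93, 8.33 and 8.20 CPM against 85.2, 89.5 and 66.6 CPM (9.85-fold lower, edgeR adjusted p = 3.53e-10). Samhd1, which depletes nucleotides, was 3.37-fold higher (92.3 against 27.4 CPM, edgeR adjusted p = 2.87e-11). Of 14 GBP and IRG genes outside the 38, 6 were tested, and calls went both ways (2 higher, 4 lower, median log2 difference -0.65). Irgm2, 1 of the 2 that were higher, was read at 22.7, 22.3 and 22.2 CPM against 7.13, 6.17 and 6.94 CPM (3.32-fold, edgeR adjusted p = 1.58e-09). Gbp11, the other, stood at 0.439 against 0.0796 CPM, and the genes that were lower were Gbp5, Gbp6, Gbp9 and Ifi47. Of these lower genes only Ifi47 passed 2 CPM under either label (1.64 against 2.57 CPM, 1.57-fold lower, edgeR adjusted p = 0.00234). As much as 70.65% of the 50-base stretches of Gbp6 occur elsewhere, mostly in Gm43302, which also overlaps 28.99% of its exon bases. For Gbp11 the share is 19.18%, so the values of both genes are uncertain.

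OAS and IFIT paralogs outside the 38 did not all follow the families described above. Of 9 such genes, 3 were tested, 1 was higher and 2 were lower. Ifit1bl1 (chr19:34592888-34662981) lies on the - strand, and its span contains the IFIT members Ifit3b and Ifit1. None of its exon bases overlap another gene. Ifit1bl1 was at 0.189, 0.281 and 0.251 CPM in KO-labelled libraries against 1.18, 1.68 and 1.26 CPM in WT-labelled ones. It was 5.61-fold lower (log2 -2.49, SE 0.254, edgeR adjusted p = 4.5e-06), opposite in direction to all 4 IFIT members. Oas1b had 1.40, 1.24 and 1.03 CPM against 0.892, 0.638 and 0.534 CPM and was 1.80-fold higher (edgeR adjusted p = 0.00457), opposite to the OAS members called lower. Oas1c was 1.27-fold lower (2.48 against 3.16 CPM, edgeR adjusted p = 0.0161), with 15.1% of its 50-base stretches found elsewhere, mostly in Gm43069. Ifit1bl1, Oas1b, Gbp5, Gbp6, Gbp9 and Gbp11 are below the 2 CPM set for naming genes of these lists and were named after their values were seen.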

How the data were processed

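RNA was measured in 6 libraries of mouse melanocytes, 3 per genotype label. Per the labels' protocols, the TruSeq RNA v2 preparation was used, which does not mark strand, so reads of overlapping genes cannot be told apart. GSNAP and the GRCm38 build were used per the submitters' processing notes; versions, counting tool and annotation were not given in the sources used here. As deposited, per the file headers, the values are the count of uniquely aligned reads per gene model and an RPKM adjusted by a size factor. All tests ran on the counts, and the deposited RPKM served only to compare levels between genes.

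Gene IDs were matched to RefSeq (GRCm38.p6), which named 31049 of 36528 gene models (85.0%), and 77 more took a symbol from GENCODE M21. Rows without a symbol (1.05% of reads) stayed in library sizes and tests, since they are gene models. Genes were kept by filterByExpr (minimum count 10, minimum total 15), scaled by TMM, with factors from 0.975 to 1.03. All 17121 genes were tested in R 4.3.3 by the quasi-likelihood method of edgeR 4.0.16 (glmQLFit and then glmQLFTest), with Benjamini-Hochberg adjustment and a threshold of 0.05. The 6 libraries entered with no covariate. SE is the absolute log2 difference over the square root of F, and CPM are TMM-scaled. The common biological coefficient of variation was 0.0536. For Oas3 a floor of 3 reads over a group of 3 libraries gives the bound, which covers counting error only. Shared stretches of 50 bases and exon overlap on either strand were taken from GENCODE M21 (Python 3.11.15), and shares over 10% are given.

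The members, families and lists were chosen with earlier results of these data known, so they are described by counts and medians without a test of the list. All 38 genes may be named, with Bap1, the receptors, Irf1, Irf7 and Irf9, and from each pathway list up to 4 called genes by size of difference with at least 2 CPM in the higher group. The method was tested on simulated data in which only a small share of genes changed. That test cannot judge scaling or calls where 81.5% of genes are called, as here. Alternatives were other scaling factors (DESeq2, library totals, upper quartile, the authors'), no count filter, a 5 CPM minimum, DESeq2 1.42.0, voom of limma 3.58.1, the robust option, an adjusted p under 0.01, glmTreat, leaving out each library, members sharing under 10%, and an extended ISRE. Some genes that this rule names are not reported here. Promoters of the other 11 members were not analysed here.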

Additional observations from a re-analysis of the deposited data

How the results depend on the processing

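Of the settings tried, glmTreat, which tests against a 2-fold difference, moved the counts of members called higher and lower by over 1.5 times, and leaving out the 9 members with shared sequence moved the higher count (12) but not the lower one (10). Under glmTreat, 30.6% of all genes were called (1818 higher, 3417 lower), with 10 members higher and 5 lower. By family, glmTreat called 1 GBP or IRG gene higher and 0 lower, 2 MX and other effectors higher, 1 ISG15-system gene higher and 0 lower, 0 sensor genes lower, 0 PARP genes in either direction and 1 of the other genes higher, and Bap1 at 0.42 had an adjusted p of 1. A filter of 5 CPM in 3 libraries left 0 OAS genes lower and 2 MX and other effectors higher, because fewer genes were tested, and 1 of the other genes higher, since Rtp4 was not tested and Ifi35 lost its call. The median log2 difference of the members was 0.25 with DESeq2 size factors and with DESeq2, 0.18 with library totals, 0.27 with the authors' factors, 0.42 with no count filter, 0.38 with the 5 CPM filter and -0.037 among members sharing under 10%. Leaving out 1 library each gave medians of 0.25 to 0.34, and the cause was not tested. The ISRE core followed by CT was in 10 of 27 member promoters and 82 of all genes. It was in 7 of 15 members that were higher (46.7%), 2 of 10 that were lower (20%) and 1 of 2 not called. Of the genes whose letters are shown, Ifit1, Ifit3, Ifit3b and Gbp7 had it. The higher genes Stat2 and Isg15 and the lower genes Oas3 and Rsad2 did not. The 2 lower genes that had it were Gbp2 and Ifitm3. Differences of 4 members that were not called changed sign, each staying uncalled: without 1 library each, Oas1a ranged from -0.19 to 0.094, Usp18 from -0.062 to 0.018, Zbp1 from -0.28 to 0.32 and Dhx58 from -0.026 to 0.20; Zbp1 was 0.016 with limma-voom and Dhx58 -0.0094 with library totals. Ifi35 lost its call under 10 settings, and Eif2ak2 gained one with the 5 CPM filter (edgeR adjusted p = 0.0476). No paired analysis was possible because the labels give no replicate numbers that groups share. Scaling moved the median of all genes by at most 0.06 on the log2 scale. Oas3, Oasl1, Mx1, Zbp1 and Oas1a had under 1 CPM in both groups, where differences rest on few reads.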

Other observations

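Among 57 further interferon-induced genes outside the 38, 45 were tested. Calls were even, 20 higher and 20 lower, where 39.4% and 42.1% of all tested genes were called. The median log2 difference was -0.04, beside -0.03 over all tested genes. Ly6e, a surface protein that affects virus entry, had 29.5, 30.4 and 30.8 CPM in KO-labelled and 740, 716 and 820 CPM in WT-labelled libraries. It was 25.1-fold lower (log2 -4.65, SE 0.0592, edgeR adjusted p = 3.01e-13).

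The DNA-binding p200 proteins, singled out after their values were seen, were mostly lower. Ifi204 had 0.728, 0.774 and 0.781 CPM against 21.0, 22.8 and 17.4 CPM, and was 26.6-fold lower (log2 -4.74, SE 0.145, edgeR adjusted p = 1.71e-10). Ifi211 had a mean of 0.0276 CPM against 4.01 CPM and Ifi205 of 0.0426 against 3.5 CPM (edgeR adjusted p = 2.92e-09 and 2.54e-08). The mean of Ifi209 was 0.180 against 4.02 CPM, that of Ifi203 was 0.0931 against 1.70 CPM, and that of Mndal was 0.0504 against 1.33 CPM, all called lower by edgeR. Aim2, the DNA sensor of the inflammasome and a relative of these proteins, was 5.47-fold lower (0.303 against 1.67 CPM, edgeR adjusted p = 3.39e-07). Ifi207 was the exception at 0.805 against 0.983 CPM (edgeR adjusted p = 0.317). The copies share sequence, up to 72.8% of the 50-base stretches in Ifi211, so their division of reads is uncertain. The summed keratinocyte and fibroblast markers were lower in the same libraries, and their part in these differences was not tested.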
